A study of Mus musculus with 11 samples.

Results

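The liver lobule is divided between hepatocytes near the portal tract and hepatocytes around the central vein, and the enzymes they carry differ. Around the central vein, hepatocytes express many of the enzymes that oxidise alcohols, aldehydes and foreign compounds, among them Cyp2e1, the cytochrome P450 that turns paracetamol (acetaminophen, APAP) into its reactive product. Aldehyde dehydrogenases oxidise aldehydes to acids, aldo-keto reductases reduce carbonyl groups, carbonic anhydrases interconvert carbon dioxide and bicarbonate, and cytochrome b5 passes electrons to microsomal enzymes.

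The present account follows 7 genes of this kind across an APAP time course in the mouse liver. They were taken by name from the gene symbols of the count matrices, not by their values, and all 7 were found among the 31053 genes listed. Aldh1a1 encodes a cytosolic retinaldehyde dehydrogenase, Aldh2 the mitochondrial enzyme that clears acetaldehyde, and Aldh3a2 the microsomal fatty aldehyde dehydrogenase. Akr1c6 encodes an aldo-keto reductase that acts on 17-ketosteroids, Car3 the cytosolic carbonic anhydrase 3, Rgn regucalcin, a gluconolactonase on the route to ascorbate, and Cyb5a cytochrome b5. In the GENCODE M21 annotation of GRCm38 they lie at chr19:20492715-20643465 (Aldh1a1, plus strand), chr5:121566027-121593824 (Aldh2, minus), chr11:61223417-61267464 (Aldh3a2, minus), chr13:4434306-4457877 (Akr1c6, plus), chr3:14863512-14872523 (Car3, plus), chrX:20549787-20562089 (Rgn, plus) and chr18:84838704-84879871 (Cyb5a, plus). All 7 passed the filter on low counts, so every test below is over the same 7 genes.

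Spatial gene expression was measured by Visium on 11 snap-frozen liver sections, a method that captures polyadenylated RNA on an array of barcoded spots, each wider than a hepatocyte. Of these, 3 were uninjured (0 h, numbered 2, 3 and 4) and 8 had been taken after APAP, namely 2 from 24 h and 2 from 36 h, each lettered A and B, and 4 from 48 h, lettered A to D. Per the study's methods the wild-type animals were young adult C57BL/6JCrl mice, male unless stated, that were fasted before APAP was given into the peritoneum. Whether the uninjured animals were fasted is not stated there. The labels do not tie sections to animals, and the methods give a count of 1 mouse liver for every time point, so n counts sections, each p covers only the spread between sections, and the mouse, any batch and the time point cannot be told apart.

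Passing spots summed to 31292663 to 67045372 unique molecular identifiers (UMIs, counted molecules) per section, with 1490 to 3466 spots and a median of 15168.5 to 29950 UMIs per spot. The members were well sampled, from 597 UMIs for Aldh3a2 in its lowest section to 195896 for Car3 in its highest. After TMM scaling, which centres the fold changes of most genes, the hepatocyte markers (Alb, Ttr, Hp, Hnf4a, Apoa1) summed to between 107268 and 111967 UMIs per 1000000 (CPM) at 0 h and between 72425 and 98470 in the injured sections. Without it these ranges were 86758 to 88633 and 83159 to 103492 and overlapped. On the TMM scale the mononuclear phagocyte list ran from 305 to 322 CPM at 0 h and from 322 to 1124 after injury, the neutrophil list from 1.96 to 7.80 and from 20.7 to 134.9, and the myofibroblast list from 37.5 to 45.9 and from 70.4 to 1185. These sums do not separate more cells from more RNA per cell. The part of any shift in cell make-up in the levels below was not tested, and in summed sections fewer hepatocytes and less RNA per hepatocyte cannot be told apart. The median mitochondrial share of a spot was 4.31% to 6.38% at 0 h and 1.69% to 4.56% after injury, and 10.7% to 24.9% of the UMIs lay off the tissue.

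Reference promoter sequence was available for 3 of the 7 members (RefSeq, GRCm38.p6) and is shown so that the starts of Aldh1a1, its neighbour Aldh1a7, Aldh3a2 and Akr1c6 can be compared. RefSeq gave Aldh1a1 a pair of starts, a first one near the start of the gene and an internal one. Bases run 5′ to 3′ on the gene's strand, and capitals mark matches to the motifs searched on both strands. The Aldh1a1 windows are chr19:20492333-20492582 (first start, 250 bases) and chr19:20601858-20601960 (internal start, 103 bases), both on the plus strand, and that of Aldh1a7 is chr19:20727563-20727666 on the minus strand (104 bases), that of Aldh3a2 chr11:61267187-61267436 on the minus strand (250 bases) and that of Akr1c6 chr13:4434093-4434305 on the plus strand (213 bases).
Aldh1a1 first start: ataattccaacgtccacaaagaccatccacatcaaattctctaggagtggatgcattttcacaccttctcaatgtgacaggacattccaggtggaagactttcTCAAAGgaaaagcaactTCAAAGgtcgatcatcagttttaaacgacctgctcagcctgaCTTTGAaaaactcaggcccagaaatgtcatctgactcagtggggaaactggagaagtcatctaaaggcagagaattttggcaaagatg
Aldh1a1 internal start: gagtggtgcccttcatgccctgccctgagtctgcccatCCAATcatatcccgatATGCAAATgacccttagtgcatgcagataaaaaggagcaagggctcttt
Aldh1a7: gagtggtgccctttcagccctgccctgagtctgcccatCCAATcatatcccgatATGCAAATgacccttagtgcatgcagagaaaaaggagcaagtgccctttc
Aldh3a2: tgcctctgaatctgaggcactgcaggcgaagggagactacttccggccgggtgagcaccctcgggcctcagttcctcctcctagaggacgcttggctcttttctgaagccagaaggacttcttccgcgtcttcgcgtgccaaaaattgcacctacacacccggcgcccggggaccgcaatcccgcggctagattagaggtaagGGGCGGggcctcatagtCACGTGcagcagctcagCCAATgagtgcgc
Akr1c6: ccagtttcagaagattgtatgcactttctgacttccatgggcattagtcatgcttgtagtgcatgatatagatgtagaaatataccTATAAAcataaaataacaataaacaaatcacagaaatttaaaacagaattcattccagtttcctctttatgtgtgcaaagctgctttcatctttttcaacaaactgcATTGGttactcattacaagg

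The internal start of Aldh1a1 and that of Aldh1a7 matched at 104 of 110 aligned bases before their start sites (94.55% identity), and both carried CCAAT and the octamer ATGCAAAT, the latter starting at base -56 of each. The first start of Aldh1a1 held neither, and shared no more than 8 aligned bases with Aldh1a7. The octamer is present in 1.60% of the 32851 mouse promoters searched over the same 250 bases and CCAAT in 33.9%. The Aldh3a2 window was 61.2% G and C and held GGGCGG (in 32.7% of promoters), CACGTG (6.02%) and CCAAT, whereas the Akr1c6 window was 32.9% G and C and held TATAAA (12.4%) and, on the other strand, CCAAT. The motif CTTTGA (in 13.8% of promoters) matched 3 times in the window of the first Aldh1a1 start, at bases -147, -130 and -88, and in none of the stretches printed for the other starts. Some of these stretches are shorter, and the full 250 bases of Aldh1a7 held CTTTGA at base -206. These matches describe letters in a window, not bound sites. The last 500 bases of each member's transcript, which the 3′ assay reads, shared no 50-base word with another gene, except for 2 of 451 words of Akr1c6 found in Akr1c20.

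The question put first was how far each gene's level in the whole section moved after APAP. All 7 genes fell at 24 h, 4 of 7 were lower at 36 h and 6 of 7 at 48 h (edgeR quasi-likelihood test on section sums, adjusted p under 0.05 over 14821 genes). The background was 18.6% of all genes lower and 23.1% higher at 24 h, 12.4% and 16.8% at 36 h, and 20.9% and 23.3% at 48 h. For the members, the median log2 fold change was -1.56, -0.997 and -1.01 at 24, 36 and 48 h, beside 0.05, 0.05 and 0.01 over all genes tested. Levels are given in CPM after TMM scaling, so they follow a gene between sections and do not rank genes against each other.

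**Figure D1:**
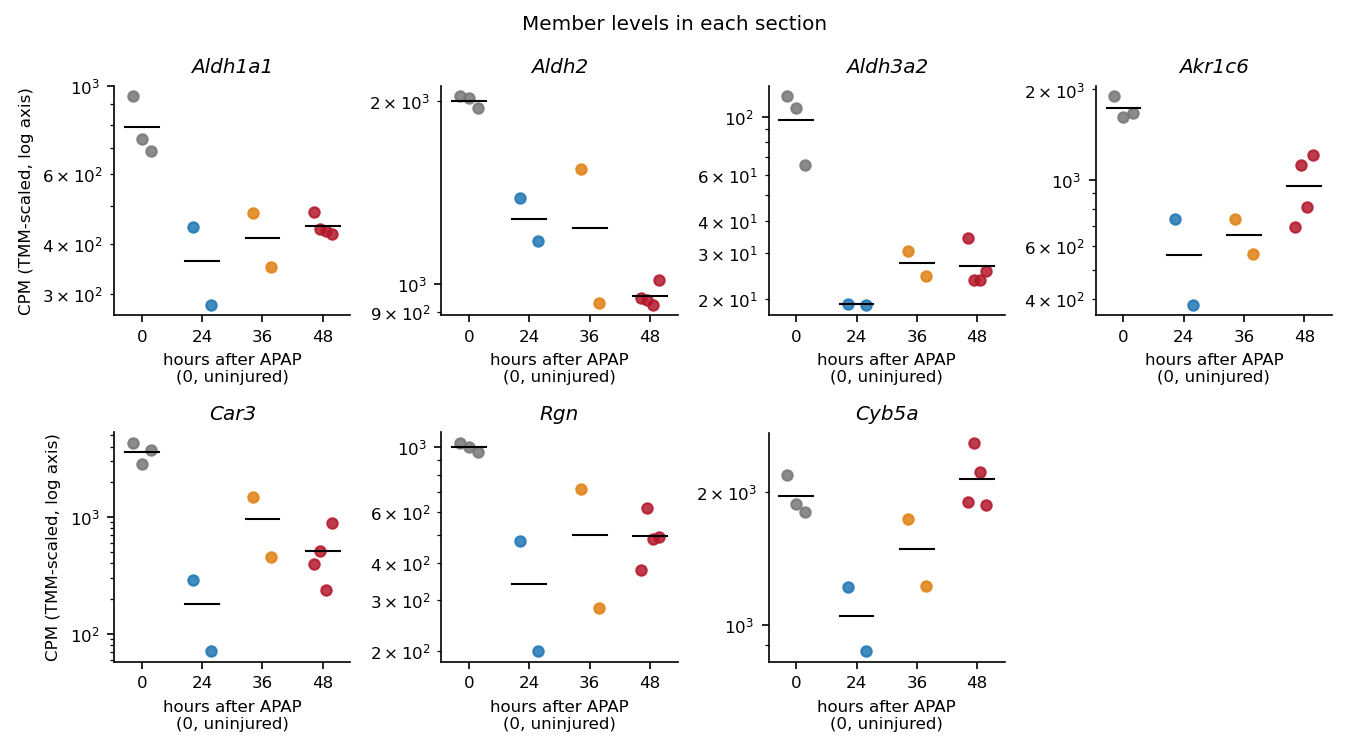
CPM (TMM-scaled, log axis) of the 7 genes in each section, with points for sections and a bar for the mean of 3, 2, 2 and 4 sections at 0, 24, 36 and 48 h after APAP. Car3 has the widest span, from 4312 to 70.8 CPM, and Cyb5a is the gene whose 48 h sections (1870.1 to 2579) lie among or above those at 0 h.

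Of the 3 members that are aldehyde dehydrogenases, Aldh3a2 had the largest fold change at each time. It stood at 119.7, 107.6 and 65.5 CPM in the 0 h sections 2, 3 and 4, at 19.1 and 19.0 CPM in the 24 h sections A and B, 30.6 and 24.5 after 36 h, and 34.2, 23.8, 23.7 and 25.7 after 48 h. The 0 h sections did not overlap with the injured ones, and the 2 sections at 24 h were almost equal. Its log2 fold change was -2.36 ± 0.26 (SE) at 24 h, -1.83 ± 0.26 at 36 h and -1.86 ± 0.20 at 48 h (edgeR adjusted p = 0.000117, 0.00116 and 8.4e-05). This is the enzyme of long-chain fatty aldehydes, and in these sections it remained at 19.6%, 28.2% and 27.5% of its 0 h mean.

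Aldh1a1 was at 943, 738 and 689 CPM at 0 h, 442 and 282 after 24 h, 480.5 and 350.1 after 36 h, and 482, 438, 431 and 425 after 48 h. Every injured section lay below every 0 h section, and the 4 sections at 48 h were close together. The log2 fold changes were -1.12 ± 0.22, -0.93 ± 0.21 and -0.83 ± 0.17 (edgeR adjusted p = 0.00208, 0.0097 and 0.0030).

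Aldh2, the mitochondrial enzyme, had the smallest change of these 3 enzymes at 24 h. Its levels were 2032, 2018 and 1942 CPM at 0 h, 1383 and 1179 after 24 h, 1543 and 932 after 36 h, and 949, 942, 926 and 1017 after 48 h. No injured section reached the 0 h range, and the 36 h sections spanned most of the injured range. The log2 fold changes were -0.64 ± 0.18, -0.69 ± 0.18 and -1.06 ± 0.15 (edgeR adjusted p = 0.0161, 0.0178 and 0.00032). The 24 h call was lost without section B at 24 h (-0.53, edgeR adjusted p = 0.122), with total-count scaling (-0.31, adjusted p = 0.196) and with scaling to the hepatocyte list (-0.32, adjusted p = 0.319), and the value between 24 h and 48 h, -0.42 ± 0.17, did not pass (adjusted p = 0.0742).

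Akr1c6, the ketosteroid reductase, stood at 1896, 1622 and 1672 CPM at 0 h, 738 and 381 after 24 h, 738 and 565 after 36 h, and 693, 1115, 808 and 1203 after 48 h. All injured sections were below the 0 h sections, and sections B and D at 48 h were the highest of the injured ones. It was lower at each time, by -1.63 ± 0.31, -1.41 ± 0.31 and -0.86 ± 0.24 on the log2 scale (edgeR adjusted p = 0.00208, 0.00775 and 0.0154).

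Car3, an abundant carbonic anhydrase of liver, fat and muscle, had the deepest fall and the widest scatter. It was at 4312, 2866 and 3716 CPM at 0 h, 288 and 70.8 after 24 h, 1477 and 457 after 36 h, and 396, 510.5, 235 and 893 after 48 h. The injured sections all lay below 0 h, but section A exceeded section B at both 24 h and 36 h, as it did for all 7 members. The level was 20.2 times lower at 24 h (log2 -4.34 ± 0.83, edgeR adjusted p = 0.00272), 12.6 times without section B at 24 h and 51.3 times without section A, and 7.14 times lower at 48 h (-2.84 ± 0.59, adjusted p = 0.00370). At 36 h the log2 value of -1.91 ± 0.73 did not pass in edgeR (adjusted p = 0.0762), while DESeq2 gave an adjusted p of 0.0356.

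Rgn, regucalcin, was at 1032, 1000.02 and 959 CPM at 0 h, 477 and 199.5 after 24 h, 719 and 280.3 after 36 h, and 379, 619.6, 485 and 491 after 48 h. The groups did not overlap with 0 h, and section A was again above section B at 24 h and 36 h. It was lower at 24 h (-1.56 ± 0.43, edgeR adjusted p = 0.0149) and at 48 h (-1.01 ± 0.34, adjusted p = 0.0326). At 36 h it was -0.997 ± 0.418 (adjusted p = 0.0975; 0.0328 by DESeq2). At 24 h the value was -2.32 without section A (edgeR adjusted p = 0.00769) and -1.07 without section B (adjusted p = 0.108), and the 48 h call was lost in 6 of the 7 fits without one of the sections compared, with adjusted p between 0.0604 and 0.0795.

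Cyb5a, the electron carrier, was the exception at the last time. It was at 2184, 1882 and 1801 CPM at 0 h, 1222 and 872 after 24 h, 1738 and 1227 after 36 h, and 1899, 2579, 2216 and 1870.1 after 48 h. The 24 h and 36 h sections lay below 0 h, and the 48 h sections overlapped with 0 h, with section B the highest of all 11. It was lower at 24 h (-0.90 ± 0.21, edgeR adjusted p = 0.00618), a call lost without section B at 24 h (-0.68, adjusted p = 0.0696), while the values of -0.40 ± 0.21 at 36 h (adjusted p = 0.167) and 0.13 ± 0.17 at 48 h (adjusted p = 0.562) did not pass. Between 24 h and 48 h it rose (1.03 ± 0.20, adjusted p = 0.00377; 34.1% of all genes were called in either direction).

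**Figure D2:**
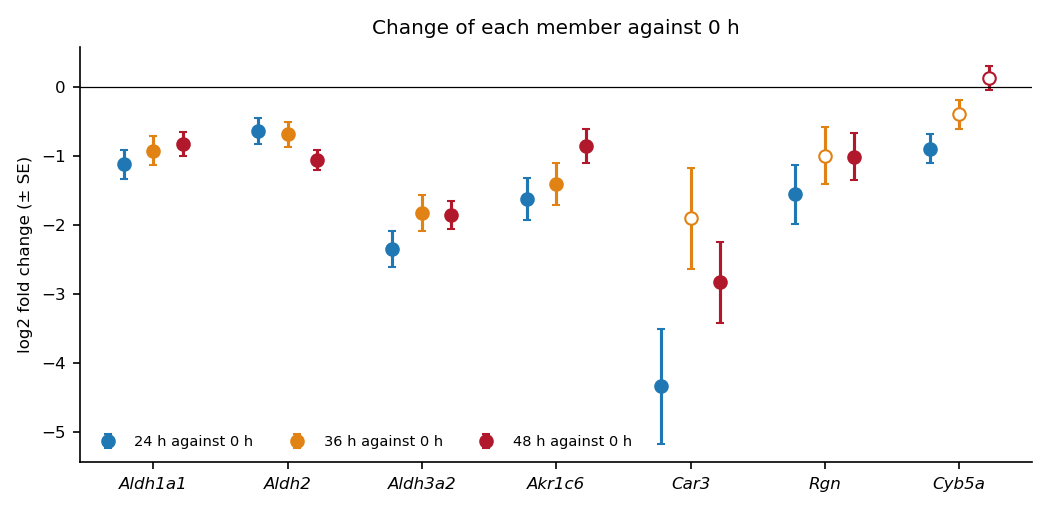
log2 fold change (edgeR, TMM scaling) of each gene at 24, 36 and 48 h against 0 h, with bars of 1 SE, filled points for an adjusted p under 0.05 and open points for the rest. At 48 h 6 of the 7 genes lie between -2.84 and -0.83 and Cyb5a lies at 0.13.

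The later steps gave few calls. Between 24 h and 36 h no member passed in edgeR (15.6% of all genes did, in either direction), 2 members, Car3 and Cyb5a, had an unadjusted p under 0.05, and DESeq2 called 1, Car3. From 36 h to 48 h none passed in edgeR or DESeq2 (3.05% of all genes in edgeR), with 1 member, Cyb5a, at an unadjusted p under 0.05. Between 24 h and 48 h DESeq2 added Akr1c6 (log2 0.79, adjusted p = 0.0186). Leaving out a section of 36 h, either A or B, called Aldh2 as well between 24 h and 48 h (edgeR adjusted p = 0.00676 and 0.00958), as did leaving out the 0 h section 4 for Aldh3a2 (0.0417) and section A at 24 h or at 48 h for Akr1c6 (0.0219 and 0.0339).

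The result at 36 h rested on section B. Without it the only member called was Aldh3a2, and Aldh1a1 (-0.72, adjusted p = 0.0667), Aldh2 (-0.37, adjusted p = 0.0735) and Akr1c6 (-1.23, adjusted p = 0.0634) no longer passed in edgeR. Without section A at 36 h, 6 of 7 were called, with Rgn (-1.83, adjusted p = 0.0151) and Cyb5a (-0.68, adjusted p = 0.0492) added. Aldh2 at 36 h also missed the threshold without the 0 h section 2 or 3 (adjusted p = 0.0525 and 0.0508), and Akr1c6 at 48 h without the 0 h section 2 (0.0551). At 24 h, leaving out section B kept 4 of 7 calls, with Aldh2, Rgn and Cyb5a lost. Scaling mattered as much. Against TMM, scaling by the total count moved the median of all genes to 0.37, 0.49 and 0.54 at 24, 36 and 48 h, and the share of called genes that were higher from 55.4%, 57.5% and 52.7% to 80.4%, 94.1% and 93.7%. Under it 6 of 7 members were called lower at 24 h, all but Aldh2, beside 1487 of all 14821 genes. Cyb5a turned to 0.04 at 36 h (adjusted p = 0.876) and was called higher at 48 h (0.66, adjusted p = 0.00893), while Aldh1a1, Akr1c6 and Rgn at 48 h no longer passed (-0.30, -0.33 and -0.49, adjusted p from 0.163 to 0.257). These 3 values lay as far below the shifted median of all genes as they had under TMM.

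The levels were also set against hepatocyte transcripts. Per 1000 UMIs of the hepatocyte list, Car3 counted 26.7 to 38.5 UMIs at 0 h and 0.743 to 18.2 after injury, and Aldh3a2 0.592 to 1.07 and 0.200 to 0.417. Cyb5a counted 16.3 to 19.5 at 0 h, 9.15 to 14.9 at 24 h, 12.5 to 21.4 at 36 h and 23.1 to 30.6 at 48 h, so on this scale its 48 h sections lay above all others. Aldh2 at 36 h (9.46 to 19.0) and Rgn at 36 h (2.85 to 8.85) overlapped with their 0 h ranges (17.5 to 18.8 and 8.66 to 9.32), as did Akr1c6 at 48 h (8.44 to 15.6 against 15.1 to 16.9). The hepatocyte list is not a fixed yardstick, since 1 of its genes, the acute-phase gene Hp, rose by 2.70, 1.74 and 1.18 on the log2 scale at the 3 times. Others fell, with Ttr at -1.15, -0.83 and -0.82 and Apoa1 at -0.56 at 24 h and -0.78 at 48 h. Alb was also called lower at 24 h and 48 h.

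The second question was where in the lobule each gene lay. Spots of a section were ranked by an index made from other genes, the mean standardised level of 6 central landmarks (Cyp2e1, Cyp1a2, Oat, Slc1a2, Glul, Lect2) minus that of 5 portal ones (Cyp2f2, Hal, Sds, Hsd17b13, Gls2). The log2 ratio of a gene's CPM in the fifth of spots at the central end over that at the portal end, here called the central-to-portal ratio, is 0 for an even gene. All 7 genes had a positive ratio in each 0 h section. They were listed as central genes, and most stand in the study's central list, which was drawn on these samples. Their sign at 0 h thus came with their choice and is no independent result. Every injured section lay below every 0 h section for 5 of 7, Aldh2, Aldh3a2, Akr1c6, Rgn and Cyb5a, as for 4.80% of the 14821 genes and 8.32% of those of at least 10 CPM. For each of these 5 the two-sided exact permutation test of 8 injured against 3 uninjured sections gave p = 0.0121, the smallest this design allows, unadjusted for the 7 genes tested. These ratios carry no TMM scaling between the ends, and their median over all genes was 0.04 at 0 h and 0.30 after injury, so an injured ratio of 0.30 is that of a typical gene. At 0 h a typical gene had little central excess to lose. The shares of all genes here and below are thus not those of central genes. The part of hepatocyte content at either end in the ratios here and below was not tested.

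**Figure D3:**
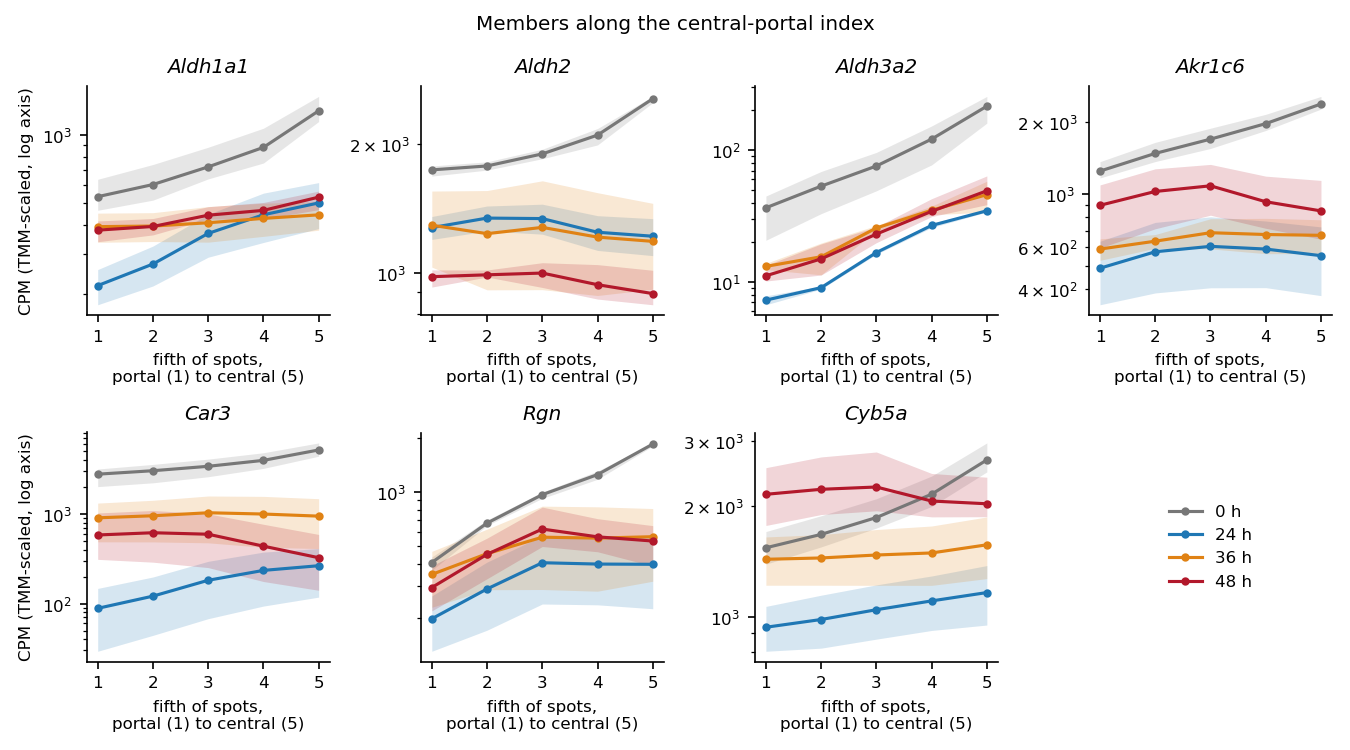
CPM (TMM-scaled by section, log axis) of each gene in 5 equal parts of the spots of a section ordered from the portal to the central end of the index, with lines for the mean of the sections at a time and shading from the lowest to the highest section. The 0 h lines climb in every panel, while the 48 h line of Car3 goes from 583 CPM at the portal end to 325 CPM at the central end and that of Aldh3a2 still climbs from 11.1 to 49.1 CPM.

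Aldh3a2 was the steepest of the 7 at 0 h and kept most of its slope. Its ratio was 2.47, 2.36 and 2.88 in the 0 h sections, 2.04 and 2.19 at 24 h, 1.998 and 1.38 at 36 h, and 2.18, 2.04, 1.81 and 2.14 at 48 h. Thus even the flattest injured section, B at 36 h, had a clear central excess, and the injured mean was 0.60 below the 0 h mean on the log2 scale. In the edgeR fit described below, which scales both ends by TMM, its ratio was 2.52 at 0 h and 1.92, 1.48 and 1.72 at 24, 36 and 48 h, a central excess past the threshold each time (12.9%, 13.7% and 33.3% of all genes had one at the 3 injured times). Its mean level at the portal end was 36.5 CPM at 0 h and 11.1 at 48 h, and at the central end 215 and 49.1 CPM.

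Rgn had the largest pooled difference of the 7, -1.36 on the log2 scale. Its ratio was 2.11, 2.17 and 2.29 at 0 h, 1.10 and 0.78 at 24 h, 0.79 and 0.48 at 36 h, and 0.82, 0.87, 0.24 and 1.56 at 48 h, with section D the highest after injury and C the lowest. With TMM between the ends the injured ratios were 0.62 ± 0.29, 0.34 ± 0.28 and 0.45 ± 0.20, none past the threshold (edgeR adjusted p = 0.166, 0.441 and 0.0843), while with total-count scaling those at 24 h and 48 h, 0.95 and 0.87, were (adjusted p = 0.0251 and 0.00298). At 0, 24 and 48 h its central end held 1854, 397 and 535 CPM and its portal end 406, 197.5 and 295 CPM.

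Akr1c6, Aldh2 and Cyb5a had a modest central excess at 0 h and none past the threshold at 48 h. The ratio of Akr1c6 was 0.91, 0.96 and 0.94 at 0 h and between -0.36 and 0.27 in the 8 injured sections. That of Aldh2 was 0.53, 0.55 and 0.57 against -0.27 to 0.07, and that of Cyb5a 0.80, 0.75 and 0.83 against -0.32 to 0.37. With TMM between the ends these values became a portal excess past the threshold at 48 h for all 3 genes, -0.50 ± 0.07 for Akr1c6, -0.56 ± 0.06 for Aldh2 and -0.50 ± 0.07 for Cyb5a (edgeR adjusted p = 1.0e-06, 4.1e-08 and 5.2e-07; 29.0% of all genes had one). Aldh2 had it at 24 h and 36 h as well (-0.41 and -0.44, adjusted p = 0.00142 and 0.000709; 14.7% and 14.2% of all genes). With total-count scaling the 48 h values were -0.08, -0.13 and -0.07 (edgeR adjusted p = 0.246, 0.0345 and 0.246). Of these, that of Aldh2 passed. A lower hepatocyte content at the central end was not separated from a change within hepatocytes in any of these values.

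The TMM-scaled levels at each end give the same genes over time. Akr1c6 went from 1248 CPM at the portal end and 2389 at the central end at 0 h to 897 and 849 CPM at 48 h. Aldh2 went from 1737 and 2545 CPM to 979 and 894 CPM. Cyb5a went from 1538 and 2666 CPM to 2150 and 2026 CPM, so its mean at 48 h was above that of 0 h at the portal end and below it at the central end.

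Aldh1a1 changed later. Its ratio was 1.21, 1.26 and 1.29 at 0 h and still 1.27 and 1.11 at 24 h, then 0.17 and 0.18 at 36 h, with 0.44, 0.64, 0.18 and 0.68 at 48 h. The 24 h sections thus overlapped with 0 h and the 36 h and 48 h sections did not. With TMM between the ends the ratio was 1.20 at 0 h and, at 24 h, 0.86 (edgeR adjusted p = 3.9e-07). The change from 0 h to 24 h, -0.34, did not pass (edgeR adjusted p = 0.0704). At 36 h and 48 h the ratio was -0.13 and 0.06, neither past the threshold, while with total-count scaling the 48 h value of 0.48 was (adjusted p = 2.1e-07). The pooled difference of -0.67 had an exact permutation p of 0.0364, which rose to 0.0970 with landmarks from the study's own lists and to 0.0727 with the third of the spots at each end in place of the fifth. It passed in 1 of 11 fits without a section (without section A at 24 h), with p from 0.05 to 0.133 in the other 10.

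Car3 took the widest course. The ratio was 0.97, 1.13 and 0.64 at 0 h, 1.47 and 1.97 at 24 h, 0.16 and -0.25 at 36 h, and -0.62, -0.95, -1.14 and -0.79 at 48 h. It was thus above the 0 h sections at 24 h, about even at 36 h and reversed in 4 of 4 sections at 48 h, where the portal end (mean 583 CPM) exceeded the central end (325 CPM). With TMM between the ends it was 0.86, 1.37, -0.34 and -1.30 at the 4 times, past the threshold at all but 36 h (edgeR adjusted p = 0.135). Pooling these opposite times gave a difference of -0.93 with an exact permutation p of 0.218.

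Because the pooled test hides such a course, each time was also tested with edgeR on the counts of the central and portal ends, over 13461 genes with the section as a block, an analysis chosen after the values above were seen. Against this TMM scaling, the total count moved the median ratio of all genes at 24, 36 and 48 h to 0.32, 0.32 and 0.46 and, against 0 h, the median change to 0.25, 0.26 and 0.38, with 84.0%, 78.7% and 80.6% of called changes upward in place of 41.4%, 44.5% and 47.0%. At 24 h the ratio was lower than at 0 h for 4 of 7 genes (10.2% of all genes), Rgn (-1.51 ± 0.37, adjusted p = 0.0288), Akr1c6 (-1.05), Aldh2 (-0.90) and Cyb5a (-0.77). Aldh3a2 (-0.60, adjusted p = 0.0562), Aldh1a1 (-0.34, adjusted p = 0.0704) and Car3 (0.51, adjusted p = 0.140) did not pass. Aldh1a1 did pass without section C or D at 48 h (adjusted p = 0.0212 and 0.0249), Aldh3a2 in 4 of 11 fits without a section (0.0292 to 0.0429), and Car3, as a rise, with total-count scaling (0.78, adjusted p = 0.0262). With all sections and TMM, at 36 h and at 48 h the ratio was lower for 7 of 7 (10.8% and 22.3% of all genes), with Car3 at -2.15 ± 0.17 at 48 h (adjusted p = 4.6e-07). The Rgn call at 24 h was lost without any 1 of the 5 sections compared (adjusted p between 0.0625 and 0.189) and at 36 h without section B (0.0884).

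The differences between injured times were tested in the same fit. From 24 h to 36 h the ratio fell for Car3 (-1.71 ± 0.24, edgeR adjusted p = 0.00249) and Aldh1a1 (-0.99 ± 0.14, adjusted p = 0.000353), 2 of 7 genes, with 2.56% of all genes called in either direction. From 36 h to 48 h it fell for Car3 alone (-0.96 ± 0.19, adjusted p = 0.0140; 5.39% of all genes), and from 24 h to 48 h for Car3 (-2.66 ± 0.21), Aldh1a1 (-0.80 ± 0.12) and Cyb5a (-0.47 ± 0.12, adjusted p = 0.00554; 20.4% of all genes). The Cyb5a call was lost without section A at 24 h (-0.35, adjusted p = 0.170).

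The landmarks themselves changed. Of the 6 central ones 5, 5 and 4 were lower at 24, 36 and 48 h, and Lect2 was higher at 48 h (0.95). Of the 5 portal ones 3, 2 and 2 were lower, Hsd17b13 was higher at 24 h (0.63), and Sds did not pass at any time. Glul, the glutamine synthetase of the cells next to the central vein, had means of 241, 20.8, 32.1 and 17.9 CPM at the 4 times, and Cyp2e1 from 2428 to 345, 627 and 531. The portal landmark Cyp2f2, a P450, went from 1429 to 241, 432 and 492 CPM and Hal, histidine ammonia-lyase, from 382 to 81.8, 237 and 235. With the landmark UMIs of the 0 h spots thinned to the lowest level of each in an injured section, the 0 h ratios were 0.88, 0.90 and 0.93 for Akr1c6, 2.04, 2.03 and 2.16 for Rgn and 0.93, 1.07 and 0.64 for Car3, close to the full values, and in the exact permutation test 5 of 7 genes kept p = 0.0121 (4.56% of all genes lay below 0 h in every injured section), while Aldh1a1 moved to 0.0606. The thinning lowered counts and kept each landmark's 0 h pattern, so a change of that pattern after injury was not tested. Car3 also varied over the width of a section, as its maps show. Taking both ends within blocks of 10 array rows by 20 columns, so that both ends held spots of the same parts of the section, left its 48 h ratios at -0.43, -0.91, -0.98 and -0.79 and again 5 of 7 genes at an exact permutation p of 0.0121 (5.13% of all genes). Both of these settings were chosen after the values were seen.

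**Figure D4:**
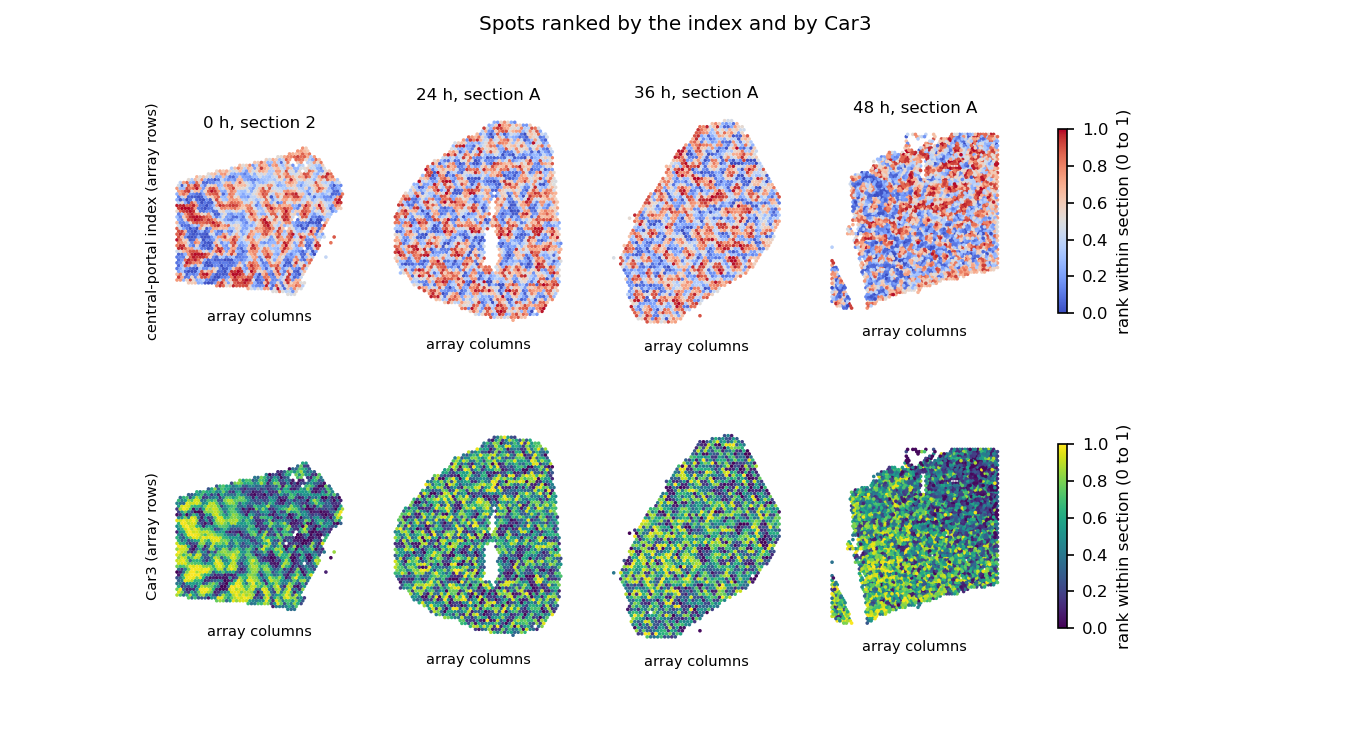
Spots of 1 section per time at their array positions, coloured by the rank of the spot within its section (0 to 1) for the central-portal index (top) and for Car3 (bottom). In the 0 h section high Car3 follows high index values on the left side, and in the 48 h section high Car3 lies in the lower left where the index is low, beside a ratio of 0.97 and -0.62 in these sections.

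How far like levels lay together, with no other gene used, was measured by Moran's I between neighbouring spots thinned to 2000 UMIs, which is 0 for a random scatter. At 0 h it was between 0.149 and 0.173 for Rgn and between 0.140 and 0.211 for Car3, the 2 most patterned members, and between 0.0296 and 0.111 for the other 5. After injury Rgn lay at 0.00706 to 0.111 and Car3 at 0.0114 to 0.111. The injured mean was below the 0 h mean for 7 of 7 genes, and for 4, Aldh1a1, Akr1c6, Car3 and Rgn, every injured section was below every 0 h section (exact permutation p = 0.0121 each; 1.27% of 12008 genes, and 1.14% of those of at least 10 CPM). Aldh2 and Aldh3a2 overlapped with 0 h and gave exact permutation p of 0.0242 and 0.0364, which makes 6 of 7 under 0.05, unadjusted for 7 tests, beside 3.42% of all genes. The median Moran's I at 0 h was -0.0008 over all genes and 0.0011 over those of at least 10 CPM. A typical gene thus had almost no pattern to lose, and these shares are not those of genes patterned at 0 h. The part of the members' lower counts in their fall of Moran's I was not tested. Aldh2 missed 0.05 without the 0 h section 2 or 3 (exact permutation p = 0.0889 each) and Aldh3a2 in 10 of 11 fits without a section (0.05 to 0.133). Cyb5a differed from these. Its value was 0.0463 to 0.0650 at 0 h, -0.0190 to 0.0165 at 24 h and 36 h, and 0.0457, 0.0480, 0.119 and 0.0456 at 48 h, which gave an exact permutation p of 0.364 with section C at 48 h and 0.0333 without it.

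At the level of single spots the counts were low, with a median of 0 to 6 UMIs per thinned spot. A UMI of Car3 was present in 97.2% to 99.6% of the 0 h spots, 12.6% to 41.2% at 24 h, 59.2% to 94.2% at 36 h and 40.5% to 81.4% at 48 h, whereas Aldh3a2 was seen in 11.2% to 16.9% at 0 h and 3.70% to 7.02% after injury. Off the tissue, spots carried the members at 0.52 to 1.40 times their CPM on the tissue, so shares of spots with a UMI include RNA that spread across the array. The median correlation between pairs of members over spots was 0.0864 to 0.124 in the 0 h sections (1937 to 2690 spots) and 0.0102 to 0.0531 in the injured ones, a description of sparse counts that share depth and position.

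Phagocytes are known to gather where hepatocytes have died, and the tenth of spots with the highest share of the phagocyte list was set against the other spots of a section, a comparison added after the data were seen. CPM in this comparison are within sections and not TMM-scaled. At 0 h the phagocyte-rich spots were shallower than the others (log2 ratio of median UMIs per spot -0.54, -0.87 and -0.50 in sections 2, 3 and 4). The part of depth in the differences below was not tested. In the phagocyte-rich spots the hepatocyte list was nearly level at 0 h (log2 0.01 to 0.06) and lower after injury (-1.05 to -0.42). Aldh3a2 went the other way. It was at 89.9, 67.2 and 51.2 CPM in the phagocyte-rich spots of the 0 h sections, against 95.2, 88.7 and 51.3 elsewhere. At 24 h it was at 33.3 and 33.1 CPM in them against 17.99 and 17.4 elsewhere, at 36 h at 56.4 and 38.6 against 31.1 and 24.2, and at 48 h at 59.2, 46.2, 40.8 and 44.4 against 36.3, 25.1, 26.1 and 27.5.

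Aldh3a2 was thus higher in the phagocyte-rich spots in 8 of 8 injured sections (log2 0.62 to 0.89) and in 0 of 3 sections at 0 h (-0.39 to -0.004), a difference of 0.92 with an exact permutation p of 0.0121, unadjusted for the 7 genes. Such a rise was common, since for 25.9% of all genes (35.0% of those of at least 10 CPM) every injured section lay above every 0 h section, and the median difference over all genes was 0.31. These are 88 to 427 UMIs per injured section. No other member was higher there in more than 1 injured section. The difference was -0.21 for Aldh2 and -0.52 for Akr1c6 (exact permutation p = 0.0121 each), -0.44 for Rgn (p = 0.0485) and -0.28 for Cyb5a (p = 0.0242), each smaller in size than the -0.71 of the hepatocyte list. A fall at p under 0.05 was seen in 7.02% of all genes. Aldh1a1 showed 0.02 (exact permutation p = 0.897). With the fifth of spots richest in phagocyte transcripts in place of the tenth, Rgn was at -0.21 and Cyb5a at -0.16, neither past 0.05 (exact permutation p = 0.121 and 0.133). The Rgn value missed 0.05 in 10 of 11 fits without a section, and that of Cyb5a without the 0 h section 2 or 4 (exact permutation p = 0.0889 each). How far these spots coincide with the central end of the index was not tested.

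**Figure D5:**
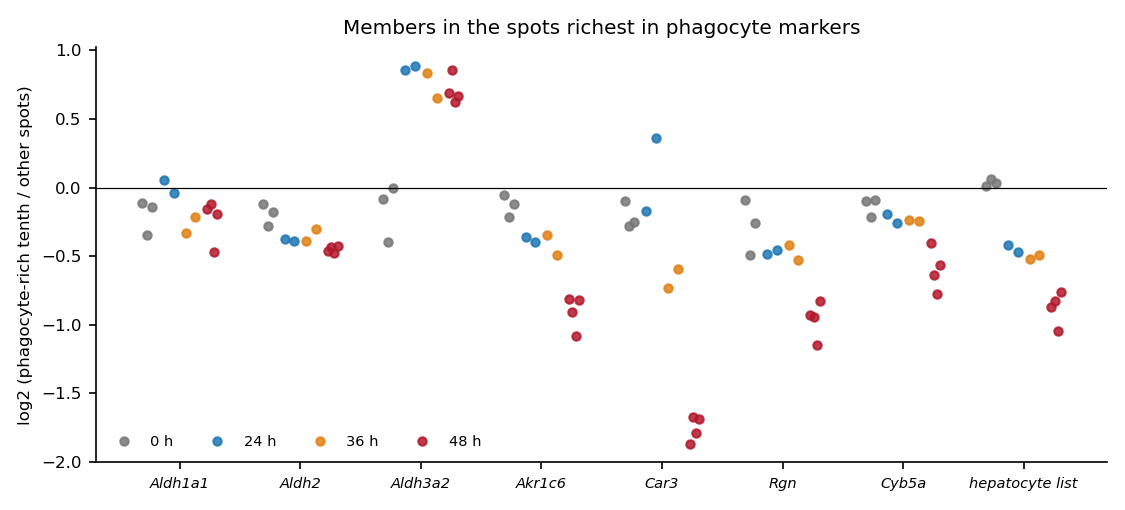
log2 ratio of each gene's CPM in the tenth of spots richest in phagocyte transcripts over the other spots, with a point per section, coloured by time point. The injured points of Aldh3a2 lie between 0.62 and 0.89, and those of Car3 spread from -1.87 to 0.36.

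Car3 in the phagocyte-rich spots split by time. At 0 h the log2 ratio was -0.10, -0.28 and -0.25, at 24 h -0.17 and 0.36, at 36 h -0.74 and -0.59, and at 48 h -1.87, -1.68, -1.79 and -1.69. The 4 sections at 48 h were the lowest of all, and pooled over the injured times the difference was -0.81 (exact permutation p = 0.194). Spots were also classed by their distance from spots poor in hepatocyte transcripts, but with at least 20 spots needed in each class only sections A and C at 48 h gave values after injury, too few for a test (the smallest p is 0.5). Such poor spots made up 0.86% to 1.60% of the 0 h sections, and 0.55% of section A and 1.14% of section C at 48 h. No section at 24 h or 36 h held more than 1. The class is thus not particular to injury. In spots touching a hepatocyte-poor spot, against spots at least 3 steps away, Aldh3a2 was higher in both (log2 1.19 and 0.78; 0.26 to 0.45 at 0 h) and Car3 lower in both (-0.71 and -0.68; 0.03 to 0.15 at 0 h).

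The other genes of these families were taken as whole lists, with the members left out. Of all genes, 18.6%, 12.4% and 20.9% were lower and 23.1%, 16.8% and 23.3% higher at 24, 36 and 48 h. Some of the family counts lie near these shares. Of 16 other aldehyde dehydrogenases tested, 8 were lower and 3 higher at 24 h, 6 and 4 at 36 h, and 8 and 5 at 48 h. Aldh1a7, the neighbour of Aldh1a1, was among the lower ones, at -1.28 ± 0.30 at 36 h and -0.98 ± 0.24 at 48 h (edgeR adjusted p = 0.0114 and 0.00781). A link to the promoter bases it shares with Aldh1a1 was not tested. Aldh6a1, the methylmalonate semialdehyde dehydrogenase of valine breakdown, was at -1.35, -0.91 and -0.92 at the 3 times, and Aldh1l1, of folate metabolism, at -1.40 at 24 h. Aldh1b1, a mitochondrial relative of Aldh2, rose to 0.71 ± 0.22 at 48 h (adjusted p = 0.0249) while Aldh2 fell. Of 5 alcohol dehydrogenases, 2, 2 and 1 were lower, among them Adh5 at -0.71, -0.53 and -0.64, and Adh4 at -1.37 and -1.72 at 24 h and 36 h.

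The 15 other aldo-keto reductases were mixed, with 8 lower and 3 higher at 24 h, 6 and 3 at 36 h and 5 and 5 at 48 h. Akr1b8, a reductase of the aldose reductase branch, rose by 1.95 ± 0.27, 1.29 ± 0.28 and 1.34 ± 0.24 on the log2 scale, and Akr1b3, aldose reductase itself, by 0.98, 0.89 and 1.23. Akr1c14, which reduces ketosteroids, was at -2.33, -1.12 and -0.91, and Akr1d1, of bile acid synthesis, at -1.91 at 24 h. Both had risen by 48 h against 24 h (1.42 ± 0.31, adjusted p = 0.00706 and 1.75 ± 0.34, adjusted p = 0.00392 in edgeR), where Akr1c6 gave 0.77 ± 0.29 (adjusted p = 0.0590).

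Of 11 other carbonic anhydrases, 5, 3 and 4 were lower and 1, 2 and 2 higher at the 3 times. Car5a, the mitochondrial enzyme that supplies bicarbonate to the urea cycle, was at -1.63, -0.89 and -1.22, and Car14, a membrane form, at -2.64 at 24 h. In the cytochrome b5 system (6 other genes), 4 were lower and 1 higher at 24 h, 2 and 2 at 36 h and 3 and 2 at 48 h. Cyb5b, the outer mitochondrial form, was at -1.37, -1.22 and -1.07 and Cyb5r3, the reductase that passes electrons to Cyb5a, at -0.85, -0.69 and -1.11, so that at 48 h both were lower while Cyb5a was not. Por, the electron donor of the P450 enzymes, rose by 2.10 ± 0.36 at 36 h and 1.20 ± 0.31 at 48 h, and Cyb5r1 by 1.55, 0.94 and 0.66. Of the 4 other genes of ascorbate synthesis, 2 were lower at each time, Gulo, whose enzyme makes the last step, at -2.10, -1.89 and -0.89, and Ugp2 at -0.96, -0.66 and -0.52.

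The study's list of central genes, which was drawn on these samples and is no independent evidence of direction, holds 6 of the 7 members. Of its 17 other genes, 13 were lower at 24 h, 14 at 36 h and 13 at 48 h, and 1, Lect2, was higher at 48 h (0.95 ± 0.17, edgeR adjusted p = 0.00114). Their median log2 fold changes were -1.57, -1.40 and -1.36, beside the members' -1.56, -0.997 and -1.01.

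Among 1379 genes of at least 100 CPM at 0 h, those whose log2 CPM followed a member most closely over the 11 sections were named by the highest Pearson r, a description over sections that share their time points. They were Acsl5 (r = 0.98) and Cyb5b (0.97) for Aldh1a1, Cyp4a12a and Vkorc1 (0.97 each) for Aldh2, Fmc1 and Cox8a (0.98 each) for Aldh3a2, Amacr and 4931406C07Rik (0.96 each) for Akr1c6, Ugt2b34 and Ttc39c (0.98 each) for Car3, and Tlcd2 (0.96) and Cyp4f14 (0.95) for Rgn. Cyb5a had the loosest neighbours, Hsd3b3 (0.89) and Nrn1 (0.88). Over thinned spots of the 0 h sections the mean r was low, and the gene most like a member was Mup11 for Aldh3a2 (0.17), Akr1c6 (0.24), Car3 (0.30) and Rgn (0.36), Cyp2e1 for Aldh1a1 and Cyb5a (0.20 each) and Fabp1 for Aldh2 (0.22).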

How the data were processed

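Each deposited matrix held raw UMI counts of 31053 genes in 4992 barcodes, without normalisation or spot filter. Per the labels the authors ran Space Ranger 1.0.0 with the mm10 genome, and Seurat 4.1.1 downstream. The authors' tissue mask and array positions were used, and a spot was kept if it had 800 genes or more and no more than 20% of its UMIs from mitochondrial genes, the limits of the study's methods. Images were not used here.

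Counts of passing spots were summed per section and tested with edgeR 4.0.16 in R 4.3.3 (filterByExpr, TMM, quasi-likelihood, 11 sections in 1 fit, Benjamini-Hochberg over 14821 genes). DESeq2 1.42.0, other scalings, no filter on low counts, leaving out each section and other definitions of the spatial classes were the alternatives. The steps were tested on simulated counts with known changes. Ratios of CPM between spot classes used a pseudocount of 1 CPM. Spatial measures were compared by two-sided exact permutation tests over 3 and 8 sections, in Python 3.11.15 with scipy 1.17.1. The same tests were run over all genes for the shares given beside the members. Adjusted values over the 7 members were not used. Thinning of spots used a fixed seed.

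The members, gene lists and tests were chosen with earlier results of these data known. The genes named beside the members came, in each list and comparison, from the 2 called genes with the largest rise and the 2 with the largest fall among those of at least 10 CPM. Not all of these are named. Left out were, among others, Akr1c12 (-1.06 at 48 h), Akr7a5 (-0.73 at 36 h), Car8 (-0.68 at 48 h) and Elovl3 (-6.18 at 24 h). Cyp2e1 and Sds are named as landmarks. The 2 genes most like each member over sections, and the 1 most like it over spots, are named as well. Alternatives added after seeing the data are named as such. The labels do not say what a section letter marks, and letters were not used to pair sections.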

Additional observations from a re-analysis of the deposited data

Results flagged for a closer look

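Of 28 sets of 4 sections at 48 h tested for a section far from the others, 1 stood apart: Moran's I of Cyb5a was 0.119 in section C beside 0.0456 to 0.0480 in A, B and D, a gap of 0.968 of the range. Chance alone marks about 1 in 20 such sets.

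For 3 of the genes a difference between injured times passed its test (edgeR adjusted p under 0.05). The log2 central-to-portal ratio of Car3 changed by -1.71 from 24 h to 36 h, by -0.955 from 36 h to 48 h and by -2.66 from 24 h to 48 h, and in CPM it was positive in 2 of 2 sections at 24 h and negative in 4 of 4 at 48 h. The ratio of Aldh1a1 changed by -0.99 from 24 h to 36 h and by -0.797 from 24 h to 48 h. The ratio of Cyb5a changed by -0.466 from 24 h to 48 h while its section level rose by 1.03 on the log2 scale. The cause of these differences was not tested.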

How the results depend on the processing

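In edgeR, scaling to the hepatocyte list gave 4, 2 and 3 members lower at 24, 36 and 48 h (7, 4 and 6 with TMM). Of all 14821 genes, 1232, 418 and 553 were lower under it (2754, 1841 and 3101 with TMM). Total-count scaling gave 2 members lower at 36 h and 3 at 48 h, beside 442 and 599 of all genes, with Cyb5a at 36 h turning from -0.40 to 0.0447. Total-count scaling called 3 members between 24 h and 48 h (1 with TMM), a fit of only those groups 2, and DESeq2 2, and DESeq2 called 1 between 24 h and 36 h (0 in edgeR). In the same order, the genes called between 24 h and 48 h numbered 5190, 4743 and 5489 (5051 with TMM). Between 24 h and 36 h DESeq2 called 3187 and edgeR 2315. Leaving out 1 section gave 4 to 7 members lower at 24 h, 1 to 6 at 36 h, 0 to 1 between 24 h and 36 h, 0 to 1 between 36 h and 48 h and 1 to 2 between 24 h and 48 h. Section letters were also tried as a replicate block over the injured sections, although not every pair of same-lettered sections deviated together (r over genes was 0.391 between 24 h and 36 h, for A and for B, which with 2 sections a time are the same contrast, and -0.293 to 0.0913 in the other pairs). With this block 0 members were called between 24 h and 48 h, beside 805 of 14717 genes, and Cyb5a was at 1.12 (edgeR adjusted p = 0.0723).

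The pooled difference in central-to-portal ratio of Aldh1a1 was -0.588 with the study's landmarks, -0.540 with the third of the spots at each end and -0.613 with the 0 h landmark UMIs thinned, no longer past the threshold in each, and ranged from -0.772 to -0.615 without 1 section. That of Car3 was -1.25 in the edgeR fit over all genes, past the threshold there. For Moran's I, leaving out 1 section gave -0.0566 to -0.0362 for Aldh2, -0.0319 to -0.0190 for Aldh3a2 and -0.0366 to -0.0168 for Cyb5a. With the 5th percentile as the hepatocyte-poor limit, the mean ring ratio of Rgn turned from -0.20 to 0.14. That limit also let in section A at 24 h and sections B and D at 48 h, so these means cover different sections. In the phagocyte-rich spots the difference for Aldh1a1 ranged from -0.0575 to 0.0612 without 1 section. The causes were not tested. Depth limits Aldh3a2 most, with 597 UMIs in its lowest section.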
